A study of Homo sapiens with 6 samples.

Results

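The collapsin response mediator proteins, the stathmins and GAP43 are 3 groups of growth-cone proteins, and their genes were followed in H1155 cells by RNA-Seq. The genes were taken by symbol as complete families, with earlier results of these data known. They were 5 collapsin response mediator protein (CRMP) genes, 4 stathmin genes and GAP43, 10 of the 58735 genes in the table. Of these, 9 were among the 17514 genes that passed the filter on low counts and were tested, and STMN4 was not. H1155 is a line of neuroendocrine large cell lung cancer that grows as floating clusters. It was cultured untreated in DMEM with 10% FBS, and 3 libraries labelled WT (genotype wildtype) were compared with 3 labelled GFI1-KO, made from cells of the same line in which CRISPR/Cas9 guides were directed to the promoter region of GFI1, a zinc finger transcription repressor. The edited cells were sorted as monoclonal clones, so the GFI1-KO libraries stand for clonal cells and the WT libraries for the parental line, and what the edit did and what a clone carried by itself cannot be told apart. Nothing in the labels says that the 3 libraries of a group came from separate cultures, so the p-values measure only the spread between these libraries, which may be technical.

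CRMPs are cytosolic phosphoproteins that bind tubulin and help to assemble microtubules in the axon, and they carry the signal by which semaphorin 3A, acting through neuropilin and plexin receptors, makes a growth cone collapse. Stathmins do the reverse, since they hold free tubulin and promote the disassembly of microtubules until kinases phosphorylate them. STMN1 is widespread in dividing cells, whereas STMN2, STMN3 and STMN4 are neuronal forms that are anchored to membranes by palmitate. GAP43 is a membrane-bound substrate of protein kinase C that accumulates in growing axons. Neuroendocrine tumors of the lung transcribe many such neuronal genes, and CRMP1 has been described as a suppressor of invasion in lung cancer cells.

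The promoters of CRMP1 and DPYSL3 are shown because these paralogs changed in opposite directions and exchanged places as the leading CRMP gene. Each sequence is the 250 bases before the RefSeq start (GRCh38.p14), written along the gene, which in both cases is on the minus strand. CRMP1 is from chr4:5893087-5893336 and DPYSL3 is from chr5:147510069-147510318, and capitals mark the core of the GFI1 motif, AATC, or its reverse complement GATT.
CRMP1: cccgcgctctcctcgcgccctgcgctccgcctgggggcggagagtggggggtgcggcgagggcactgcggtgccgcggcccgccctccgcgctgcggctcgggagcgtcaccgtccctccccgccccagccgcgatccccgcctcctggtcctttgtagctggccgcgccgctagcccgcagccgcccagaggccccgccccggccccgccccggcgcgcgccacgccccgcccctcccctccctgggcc
DPYSL3: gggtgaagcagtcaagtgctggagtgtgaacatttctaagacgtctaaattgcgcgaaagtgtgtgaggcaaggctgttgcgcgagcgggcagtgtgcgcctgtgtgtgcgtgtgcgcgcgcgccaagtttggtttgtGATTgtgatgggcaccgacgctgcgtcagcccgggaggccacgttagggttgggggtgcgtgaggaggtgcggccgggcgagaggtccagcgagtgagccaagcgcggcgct

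The GFI1 core AATC, searched on both strands, was present in 60.3% of the 14680 promoters of this length. The CRMP1 promoter held none, and that of DPYSL3 held 1, at 112 bases before the start. GC made up 82.8% of the CRMP1 promoter, more than in 98.1% of promoters, and 62.8% of the DPYSL3 promoter, against a median of 63.2%. The CRMP1 promoter carried 7 copies of the GC box GGGCGG and 37 CG dinucleotides. The DPYSL3 promoter carried none of the first and 25 of the second. The GC box was present in 59.9% of all promoters, and among the members also in DPYSL4 (8 copies), STMN1 (3) and STMN3 (2) and not in DPYSL5 and GAP43. The median over all promoters was 1 GC box and 19 CG dinucleotides. In all, 7 members were searched, and the core was also present in DPYSL5 and GAP43 and not in DPYSL4, STMN1 and STMN3. The longer form AATCNCNGC was present in 4.19% of all promoters and, among the members, in DPYSL5. The REST half-sites TTCAGCACC and GGACAG were present in 0.272% and 17.6% of promoters: no member searched held the first, and DPYSL5, STMN1 and GAP43 held the second. No member searched held the E-box CAGCTG, which 13.1% of promoters held. The window used for STMN3 starts from a RefSeq start that lies 658 bases from the main annotated one. These matches describe letters in a window and not binding.

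The libraries held between 14882914 and 17692882 counts. The targeted gene GFI1 was read 153, 106 and 125 times in the WT libraries and 174, 188 and 170 times in the GFI1-KO libraries, so it was not lower where the label says that it was edited. Gene counts do not show where on the gene the reads lie. WT and GFI1-KO are therefore used below as the labels of the libraries, and every direction depends on them. Differences were spread over the whole transcriptome: 72.4% of the genes tested passed edgeR's quasi-likelihood test at a Benjamini-Hochberg adjusted p of at most 0.05, 36.5% being higher and 35.9% lower in GFI1-KO, and 17.5% also had a log2 fold change (log2FC) of 1 or more in size. The groups did not overlap for 74.4% of the genes tested. GFI1 itself was called higher in GFI1-KO (log2FC 0.31, adjusted p = 0.0273, edgeR). It was not called with DESeq2 (adjusted p = 0.072) or with offsets for GC content and length (0.18, adjusted p = 0.213, edgeR). With each library left out its adjusted p lay between 0.00688 and 0.147 (edgeR). Log2 fold changes followed the GC content of the transcript (Spearman's rho 0.574 across 17415 genes, which are not independent replicates). A fit with offsets for GC content and length is given beside the member and list results whose calls it changed, and beside some others. Of the 10 neuroendocrine markers, 6 were higher and 4 lower in the main fit. Their summed level was between 608 and 625 FPKM (counts per kilobase of gene, scaled to the library total) in WT and between 665 and 677 in GFI1-KO. With the offsets, CHGA (log2FC -0.01, adjusted p = 0.863, edgeR) and NEUROD1 (-0.05, adjusted p = 0.133) were not called. UCHL1 (-0.43) and ENO2 (-0.15) turned from higher to lower, and the other markers kept their calls. INSM1, called lower in both fits, went from -0.08 to -0.81. The summed levels above are without the offsets. Leukocyte markers summed to at most 0.207 FPKM in any library, and fewer cells of a type and less RNA per cell cannot be told apart in such samples.

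Of the 9 members tested, 3 were called higher in GFI1-KO and 4 were called lower. The called share of the members was thus close to that of all genes, and the members differed from one another in the size and the sign of their change, also within a family. At a log2FC of 1 or more in size, 1 member was higher (STMN3) and 2 were lower (CRMP1 and STMN2). Of all genes tested, 17.5% passed at that size in either direction. The groups did not overlap for 74.4% of all genes tested and for 8 of the 9 members, GAP43 being the exception. For each of these 8 an exact two-sided permutation test gave p = 0.1, the smallest that 3 libraries against 3 allow. STMN4 had at most 6 counts in any library.

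**Figure D1:**
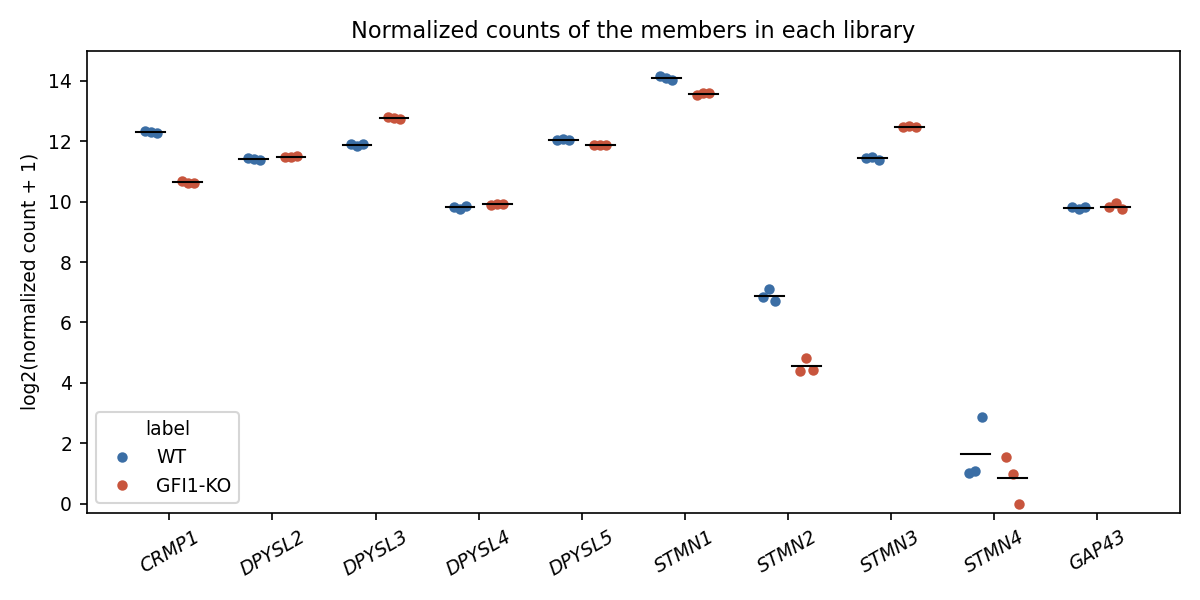
Normalized counts of the 10 genes on a log2 scale (log2 of the count plus 1), with 1 point for each library labelled WT (blue) or GFI1-KO (red) and a bar at the mean of the 3 log2 values. CRMP1 and STMN2 sit lower and DPYSL3 and STMN3 higher in every GFI1-KO library, the points of GAP43 overlap, and those of STMN4 lie near 0.

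CRMP1 (ENSG00000072832) occupies bases 5748084 to 5893058 of chromosome 4 (hg38, minus strand). Its normalized counts (counts scaled by edgeR's TMM library size) were 5158, 5029 and 4953 in WT and 1643, 1565 and 1574 in GFI1-KO. Each GFI1-KO library was far below each WT library, and the libraries of a group differed little. The mean fell from 5047 ± 104 (SD, n = 3) to 1594 ± 42.6 (SD, n = 3), 3.17-fold lower, at a log2FC of -1.66 (standard error [SE] 0.04, adjusted p = 4.3e-23, edgeR's quasi-likelihood test). With GC content and length offsets the log2FC was -2.07 (adjusted p = 1.8e-23, edgeR), and with each library left out it lay between -1.68 and -1.65. In level per length CRMP1 went from 52.6 ± 1.06 to 16.4 ± 0.427 FPKM (SD, n = 3 each), from above 96.3% to above 80.8% of the genes tested.

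DPYSL3 (ENSG00000113657), which encodes a CRMP of early axon outgrowth that also binds actin, occupies bases 147390811 to 147510056 of chromosome 5 (minus strand). It had 3848, 3669.7 and 3806 normalized counts in WT and 7131, 6919 and 6883 in GFI1-KO. All GFI1-KO libraries were above all WT libraries. DPYSL3 rose from 3774 ± 93.2 to 6978 ± 134 normalized counts (SD, n = 3 each), 1.85-fold, at a log2FC of 0.89 (SE 0.03, adjusted p = 2.9e-18, edgeR). The GC content of its transcript, 51%, was near the middle of the genes tested, and with the offsets the log2FC was 0.84.

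DPYSL5 (ENSG00000157851) encodes the most divergent CRMP, which restrains dendrite outgrowth, and lies on the plus strand of chromosome 2 from 26847747 to 26950351. Its normalized counts were 4242, 4311 and 4219 in WT and 3723, 3768 and 3719 in GFI1-KO, again without overlap but with a far smaller gap. It fell from 4257 ± 47.5 to 3737 ± 27 (SD, n = 3 each), 1.14-fold lower (log2FC -0.19, SE 0.03, adjusted p = 1.1e-05, edgeR). The fall was larger, -0.59 on the log2 scale, with the GC content and length offsets.

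DPYSL2 (ENSG00000092964), on the plus strand of chromosome 8 from 26514022 to 26658178, encodes the best studied CRMP, which promotes axon formation and is switched off through phosphorylation by GSK3B and CDK5. It had 2767, 2729.8 and 2679 normalized counts in WT and 2862, 2869 and 2889 in GFI1-KO. The groups did not overlap, but the difference was small, from 2725 ± 44.2 to 2873 ± 14.3 (SD, n = 3 each). Its log2FC of 0.08 (SE 0.03) was just inside the threshold, at an adjusted p of 0.0492 in edgeR. The call was lost with DESeq2 (adjusted p = 0.118), with the offsets (log2FC 0.04, adjusted p = 0.288) and with any 1 library left out (adjusted p between 0.0662 and 0.164).

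DPYSL4 (ENSG00000151640), on the plus strand of chromosome 10 from 132186900 to 132205776, encodes a CRMP that p53 is known to induce after DNA damage. It had 912, 862 and 918 normalized counts in WT and 946, 969 and 975 in GFI1-KO, groups that did not overlap. The change from 898 ± 30.8 to 964 ± 15.3 (SD, n = 3 each) did not pass the test (log2FC 0.10, SE 0.05, adjusted p = 0.0813, edgeR). Its transcript has 62.6% GC, more than that of 92.2% of the genes tested, and with the offsets the sign turned to -0.59 (adjusted p = 7.1e-10, edgeR). DPYSL4 thus had opposite signs in the fits.

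**Figure D2:**
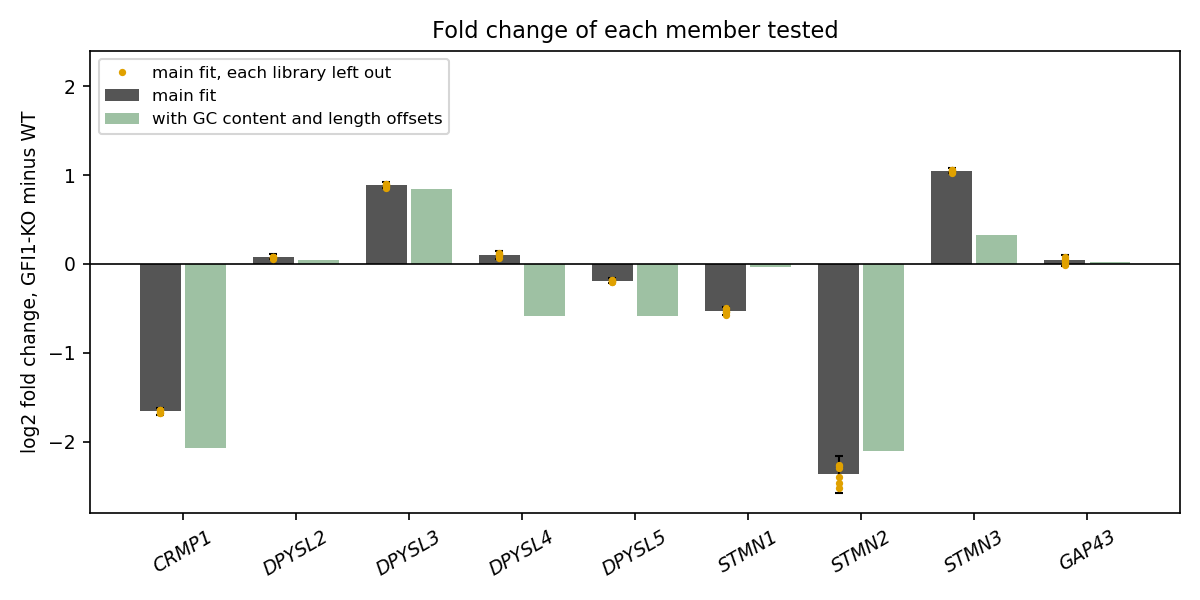
Log2FC (GFI1-KO minus WT) of each member tested, in the main edgeR fit (grey bars, with the standard error) and with GC content and length offsets (green bars). The yellow points give the main fit with each of the 6 libraries left out in turn. CRMP1, DPYSL3 and STMN2 keep the larger part of their change under the offsets, STMN1 goes from -0.53 to -0.03, STMN3 from 1.05 to 0.32, and DPYSL4 changes sign.

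Summed over the 5 genes, the CRMP level per length was 161 ± 1.9 FPKM in WT and 148 ± 0.974 FPKM in GFI1-KO (SD, n = 3 each), a ratio of 0.922 without overlap between the groups. The members that made up this sum differed much more. CRMP1 supplied 33, 32.8 and 32.3% of it in the WT libraries and 11.3, 10.9 and 11% in the GFI1-KO libraries. DPYSL3 supplied 20, 19.5 and 20.2% in WT and 39.9, 39.2 and 39.1% in GFI1-KO. CRMP1 thus was the largest CRMP transcript pool in every WT library, and DPYSL3 in every GFI1-KO library. Without offsets CRMP1 was the smallest pool in each GFI1-KO library. The other 3 members moved by less: DPYSL5 went from 22.7 to 21.4% of the sum, DPYSL2 from 14.1 to 15.9% and DPYSL4 from 10.7 to 12.3% (means of 3 libraries). The ratio of DPYSL3 to CRMP1 was 0.608 ± 0.0158 in WT and 3.56 ± 0.0333 in GFI1-KO (SD, n = 3 each), 5.85 times higher. With GC content and length offsets, CRMP1 went from 33.7 to 10.4% and DPYSL3 from 18.1 to 42%, while the ratio of the sums was 0.772. In this scaling CRMP1 and DPYSL4 had the same mean share in GFI1-KO, 10.4%, and CRMP1 was above DPYSL4 in GFI1-KO replicate 1 (10.7 and 10.2%).

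The coding sequences of CRMP1, DPYSL2 and DPYSL3 are alike over 70.2 to 71% of aligned bases, and that of DPYSL5 is alike over 50.5 to 60.3% of bases with the other 4. As a check of how far reads can be told from those of other genes, 50-base stretches of the transcripts were compared. No such stretch of DPYSL3 or DPYSL4 occurs in another gene. For CRMP1 the share was 1.89%, all of it in EVC, a gene on the opposite strand that overlaps it. The strand setting is not given in the sources used here, and without it reads of CRMP1 and EVC in their overlap cannot be assigned.

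STMN1 (ENSG00000117632), the stathmin of dividing cells, occupies bases 25884181 to 25906991 of chromosome 1 (minus strand) and had the highest level per length of all members in WT, above that of 99.4% of the genes tested. It had 18471, 17561 and 16769 normalized counts in WT and 11791, 12460.5 and 12279 in GFI1-KO. The lowest WT library was well above the highest GFI1-KO library. STMN1 fell 1.45-fold, from 17600.4 ± 852 to 12177 ± 346 (SD, n = 3 each; log2FC -0.53, SE 0.04, adjusted p = 3.3e-13, edgeR). Its transcript is poor in GC (39.3%, above that of 13.9% of the genes tested). With the GC content and length offsets the log2FC was -0.03 (adjusted p = 0.516, edgeR), which ends the call.

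STMN3 (ENSG00000197457), a neuronal, membrane-anchored stathmin, occupies bases 63639705 to 63657682 of chromosome 20 (minus strand). It had 2766, 2858 and 2686 normalized counts in WT and 5675, 5872 and 5627 in GFI1-KO. Every GFI1-KO library was far above every WT library. STMN3 rose 2.07-fold, from 2769.9 ± 86.2 to 5725 ± 129.5 (SD, n = 3 each; log2FC 1.05, SE 0.03, adjusted p = 2.7e-19, edgeR). It is the member richest in GC (63.5%, above that of 94.1% of the genes tested), and with the offsets its log2FC was 0.32 (adjusted p = 7.3e-09, edgeR), still a rise but a much smaller one.

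STMN2 (ENSG00000104435), a regulator of axon regrowth whose transcript is processed correctly only in the presence of TDP-43, lies on the plus strand of chromosome 8 from 79610814 to 79666175. It was a low transcript, with 112, 124 and 98 counts in WT and 21, 29 and 22 in GFI1-KO. The 95% Poisson intervals of the counts, which cover counting error only, ran from 79.6 to 148 over the WT libraries and from 13 to 41.6 over the GFI1-KO libraries and so did not meet. STMN2 fell 5.17-fold, from 118 ± 17.5 to 22.7 ± 4.13 normalized counts (SD, n = 3 each; log2FC -2.37, SE 0.21, adjusted p = 7.7e-11, edgeR), the largest change among the members tested. With the offsets it was -2.11, and with each library left out it lay between -2.52 and -2.26. Its level went from above 41.7% to above 14.3% of the genes tested.

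STMN4 (ENSG00000015592), at bases 27235323 to 27258420 of chromosome 8 (minus strand), encodes a stathmin of the brain. It had 1, 1 and 6 counts in WT and 2, 1 and 0 in GFI1-KO, and was not tested. Its 8 counts in all WT libraries (95% Poisson interval 3.45 to 15.8) and 3 in all GFI1-KO libraries (0.619 to 8.77) gave a depth-scaled ratio of 0.332 with a 95% interval from 0.0567 to 1.38. A difference in STMN4 was not detectable at this depth.

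The sum of the 4 stathmins per length was 229 ± 9.19 FPKM in WT and 231 ± 5.4 FPKM in GFI1-KO (SD, n = 3 each), a ratio of 1.01, and in this scaling the difference was smaller than the spread between libraries. Within this sum, STMN1 made up 75.4, 73.7 and 74.2% in the WT libraries and 50, 50.5 and 51.3% in the GFI1-KO libraries. STMN3 made up 23.3, 24.8 and 24.5% in WT and 49.7, 49.2 and 48.5% in GFI1-KO. The levels of STMN1 and STMN3, which lay at 171 and 55.4 FPKM in WT, were neighbors at 117 and 113 FPKM in GFI1-KO, where their ranges over the libraries overlapped. STMN2 supplied 1.32 ± 0.176% in WT and 0.25 ± 0.0395% in GFI1-KO (SD, n = 3 each). The ratio of STMN3 to STMN1 was 2.98 times higher in GFI1-KO, going from 0.325 ± 0.0143 to 0.971 ± 0.0239.

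The change in stathmin composition was smaller with the offsets, which take GC content and length together. With GC content and length offsets STMN1 supplied 65.9 ± 1.36% in WT and 61.1 ± 0.875% in GFI1-KO (SD, n = 3 each), and STMN3 supplied 32.8 ± 1.39% and 38.7 ± 0.877%. The direction was thus the same in both scalings, and the size was not. Under the offsets the stathmin sums were 222, 218 and 209.6 FPKM in WT and 224, 237 and 227 FPKM in GFI1-KO, a ratio of 1.06, and the groups then did not overlap. Whether the GC trend arose in the cells or in the libraries was not tested. The exchange between CRMP1 and DPYSL3, whose transcripts hold 57.9 and 51% GC, was larger under the offsets.

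**Figure D3:**
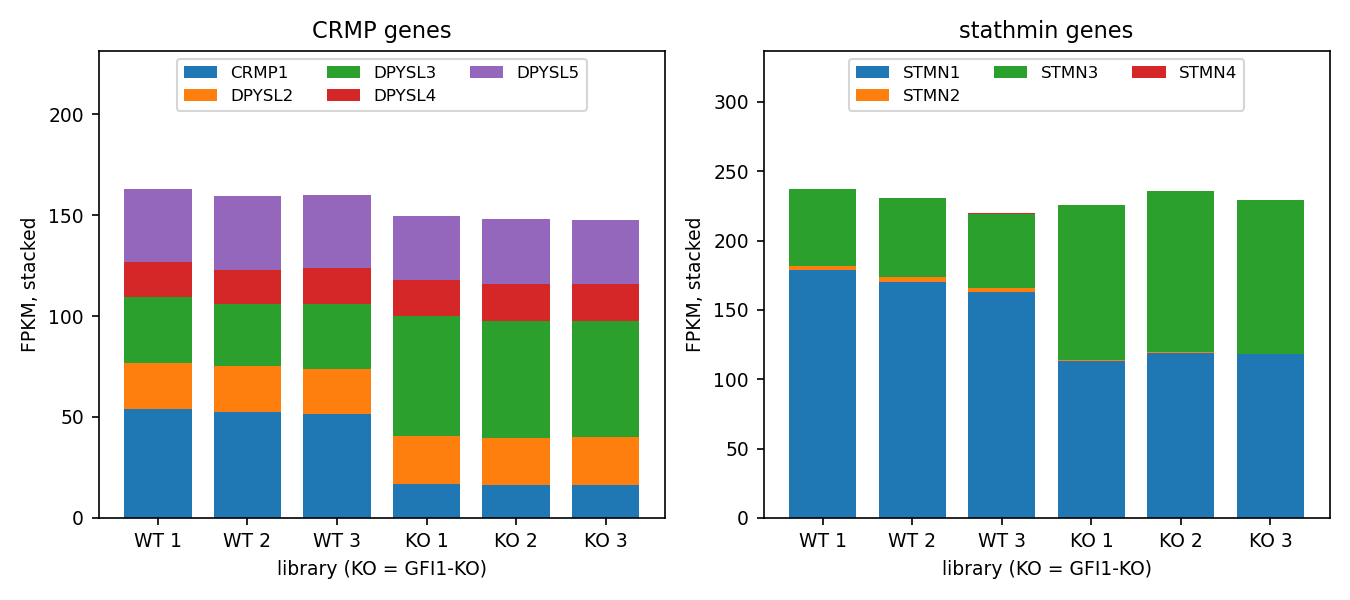
Level per length (FPKM) of the CRMP genes (left) and the stathmin genes (right), stacked by gene for each of the 3 WT and 3 GFI1-KO libraries, without GC offsets. The stacks differ little in height between groups, the CRMP1 segment shrinks from 32.7 to 11.1% of its stack while the DPYSL3 segment grows from 19.9 to 39.4%, and the STMN3 segment grows from 24.2 to 49.1%. STMN4 is too low to be seen.

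GAP43 (ENSG00000172020), on the plus strand of chromosome 3 from 115623324 to 115721490, had 896, 873 and 906 normalized counts in WT and 895, 983 and 866 in GFI1-KO. The groups overlapped, and the GFI1-KO libraries held both the lowest and the highest value. Means of 892 ± 16.6 and 914 ± 60.9 (SD, n = 3 each) gave a log2FC of 0.04 (SE 0.06, adjusted p = 0.575, edgeR). An exact two-sided permutation test gave p = 0.9. GAP43 lay above 89.7% of the genes tested in WT and above 89.3% in GFI1-KO.

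Ranked by level per length in WT, the members followed the order STMN1, STMN3, CRMP1, DPYSL5, DPYSL3, GAP43, DPYSL2, DPYSL4, STMN2 and STMN4, and no neighbors in this order overlapped in their range over the 3 libraries. In GFI1-KO the order was STMN1, STMN3, DPYSL3, DPYSL5, GAP43, DPYSL2, DPYSL4, CRMP1, STMN2 and STMN4. Only STMN1 and STMN3 overlapped there. CRMP1 stood below DPYSL4 and DPYSL3 above DPYSL5, the first of which did not hold in every library with the offsets, as given above. The other genes kept their relative order.

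The pathways around the members were described by lists of known partners. Of 24 genes of semaphorin 3A signaling and CRMP partners, 23 were tested, of which 12 rose and 9 fell, and their median log2FC was 0.20, against 0.00 for all genes tested. The receptor gene PLXNA4 had the largest increase, from 23.6, 13.3 and 17.8 to 60, 66.3 and 56.5 normalized counts (log2FC 1.73, SE 0.26, adjusted p = 1.1e-06, edgeR). Its paralog PLXNA2 had the largest decrease, from 137 ± 32.5 to 64.4 ± 1.71 (SD, n = 3 each; -1.09, SE 0.17, adjusted p = 2.4e-06). The groups did not overlap for either receptor. Both were low, PLXNA4 at 0.0676 FPKM and PLXNA2 at 0.604 FPKM in WT. The paralogs PLXNA1 and PLXNA3 lay at 8.5 and 14.5 FPKM in WT. The log2FC values of these paralogs were 0.45 and 0.66 in the main fit, and -0.10 and 0.31 with the offsets. For the CRMP kinases, CDK5 was higher (0.57, adjusted p = 4.6e-09) and GSK3B lower (-0.19, adjusted p = 1.2e-05) in the main fit. With the offsets, CDK5 did not pass the test (0.13, adjusted p = 0.066) and GSK3B turned to 0.18 (adjusted p = 2.6e-05), so neither call was common to both fits. The list then had 9 genes higher and 10 lower.

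Among 17 kinases and regulators of stathmins, 5 rose and 9 fell, at a median log2FC of -0.13. MAPK8, a kinase (JNK1) that phosphorylates neuronal stathmins, had the largest decrease, from 2324 ± 23.8 to 1516 ± 39.3 normalized counts (SD, n = 3 each; log2FC -0.62, adjusted p = 1.5e-13, edgeR), and MAPK3, the kinase ERK1, the largest increase, from 758 ± 57.1 to 1296 ± 22.3 (0.78, adjusted p = 1.1e-12). Under the offsets MAPK8 was at -0.02 (adjusted p = 0.735) and MAPK3 at 0.14, and the balance of the list turned over, with 7 genes higher and 1 lower. REST, the repressor of neuronal genes in other tissues, had 215, 174 and 169 normalized counts in WT and 278, 264 and 264 in GFI1-KO, without overlap. It rose at a log2FC of 0.53 (SE 0.10, adjusted p = 4.7e-05, edgeR), and at 1.03 with the offsets. TARDBP, which encodes TDP-43, was lower at -0.20 (adjusted p = 8.7e-06) in the main fit and higher at 0.24 (adjusted p = 4.0e-07) with the offsets.

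Of 12 GAP43-like proteins and GAP43 partners, 10 were tested, of which 3 rose and 7 fell, at a median log2FC of -0.48. ELAVL4 encodes HuD, the RNA-binding protein that stabilizes the GAP43 transcript. It had 437, 396 and 373 normalized counts in WT and 7.62, 3.79 and 3.76 in GFI1-KO, a loss in every library (log2FC -6.28, SE 0.19, adjusted p = 3.2e-20, edgeR, and -5.71 with the offsets). GAP43 itself overlapped between the same libraries, as given above. BASP1, a growth-cone protein similar to GAP43, fell from 232 ± 26 to 116 ± 4.06 (SD, n = 3 each; adjusted p = 1.7e-08, edgeR). NRGN, neurogranin, had the largest increase (0.64, adjusted p = 5.4e-08), which the offsets turned to -0.14 (adjusted p = 0.0904). With the offsets, 2 genes of this list were higher and 6 lower.

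Of 15 neuronal tubulins and microtubule-associated proteins, the structures on which CRMPs and stathmins act, 5 rose and 10 fell (median log2FC -0.84). Their summed level was between 539 and 585 FPKM in WT and between 331 and 340.0 in GFI1-KO. DCX, doublecortin, had 50, 54 and 52 counts in WT and 0, 0 and 2 in GFI1-KO, a depth-scaled ratio of 0.0113 (95% interval 0.00136 to 0.0416, counting error only). TPPP, a tubulin polymerization promoting protein, had the largest increase, from 269.5 ± 36 to 824 ± 9.38 normalized counts (SD, n = 3 each; log2FC 1.62, adjusted p = 2.6e-16, edgeR). TUBB3, the neuronal beta tubulin, was called higher (0.29, adjusted p = 0.0291), but not with DESeq2, with upper-quartile factors, with the offsets (-0.03, adjusted p = 0.827) or with WT replicate 1 or 2 or GFI1-KO replicate 2 or 3 left out (adjusted p between 0.0584 and 0.0936). At a log2FC of 1 or more in size, 1 gene of this list was higher and 6 were lower, where 17.5% of all genes tested passed in either direction. With the offsets, 3 genes of the list were higher and 10 lower.

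STMN1 is also a gene of dividing cells, and so 12 proliferation genes were set beside it: 3 rose and 8 fell, at a median log2FC of -0.16, and none reached a log2FC of 1 in size. TOP2A had the largest decrease in the main fit, from 16503 ± 619 to 9337 ± 267 normalized counts (SD, n = 3 each; -0.82, adjusted p = 2.2e-17, edgeR). With the offsets TOP2A was at -0.30, a smaller decrease than that of RRM2 (-0.61), a ribonucleotide reductase subunit named here after its values were seen. MCM5 had the largest increase, from 2074 ± 58.3 to 3914 ± 59.6 (0.92, adjusted p = 6.4e-18, or 0.57 with the offsets). The counts of MKI67, the Ki-67 gene, overlapped between groups (13551 ± 601 and 12862 ± 273, adjusted p = 0.0501, edgeR). MKI67 was called lower with DESeq2 (adjusted p = 0.0361) and limma-voom (adjusted p = 0.0188). It was also called lower with each other scaling (adjusted p between 0.00334 and 0.037, edgeR). The same call was made with at least 10 counts in every library (adjusted p = 0.042, edgeR) and without WT replicate 3 (log2FC -0.12, adjusted p = 1.4e-04). MKI67 was not called without the filter, with the replicate block or with any other library left out, and was at 0.02 with the offsets. With the offsets, 2 genes of this list were higher and 8 lower. The part of proliferation in the STMN1 result was not tested.

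**Figure D4:**
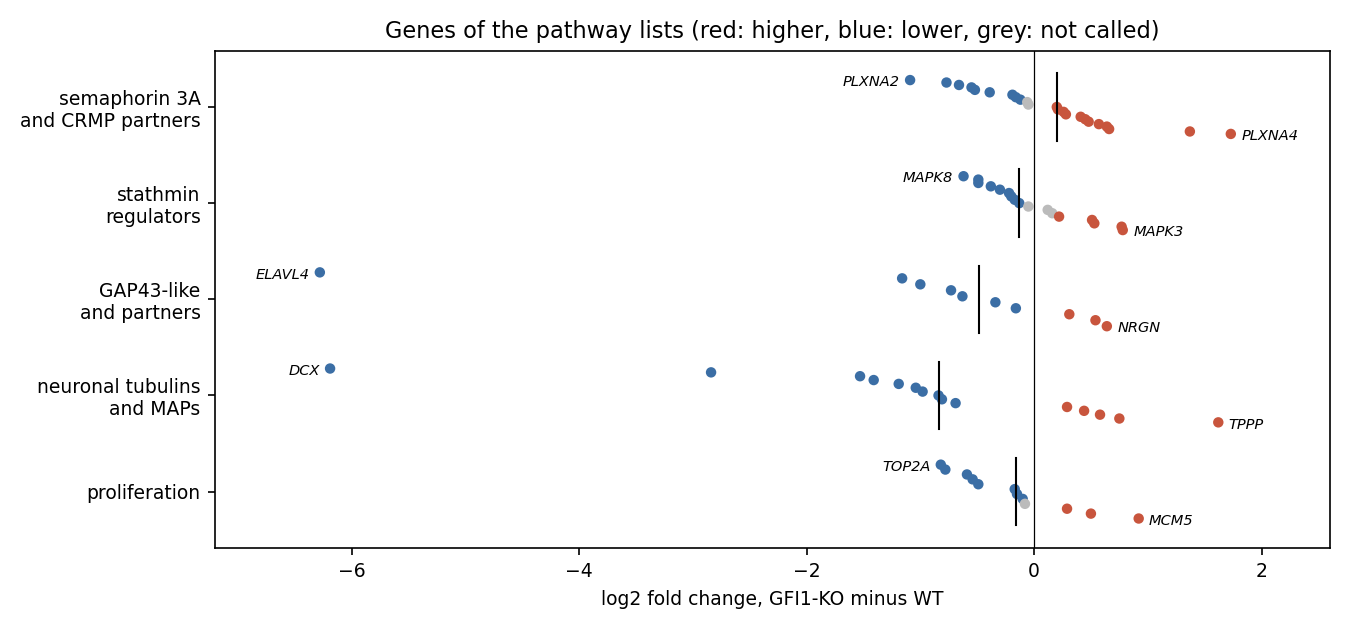
Log2FC (GFI1-KO minus WT) of the tested genes of 5 lists, 1 point a gene, with a vertical tick at the median of the list and the extreme genes named. The medians run from -0.84 for neuronal tubulins and microtubule-associated proteins (MAPs) to 0.20 for semaphorin 3A and CRMP partners, and ELAVL4 and DCX stand apart on the left.

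CRMP1 lies near the end of the short arm of chromosome 4, where the genes around it were lower as well. Within 1 Mb of CRMP1, 13 other genes were tested, 9 of them lower and 1 higher (median log2FC -0.74). Of the 117 tested genes in the first 20 Mb of chromosome 4, 90 were lower and 11 higher (median -0.88), against 305 lower and 75 higher of 486 on the rest of the chromosome (median -0.43). In windows of 2 Mb the median lay between -1.38 and -0.70 wherever genes were tested, with -1.08 in the window of 4 to 6 Mb that holds CRMP1. With the GC content and length offsets the median was -0.99 in the first 20 Mb and -0.04 on the rest, and that within 1 Mb of CRMP1 was -1.08. The change of CRMP1 was larger than these medians, and what part of it belongs to the region was not tested.

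The nearest protein-coding genes tested on either side of CRMP1 differed from each other. EVC, a ciliary gene that overlaps CRMP1 on the other strand, had 306, 391 and 333 normalized counts in WT and 324, 312 and 279.5 in GFI1-KO, with overlap (log2FC -0.17, adjusted p = 0.103, edgeR). It was called lower without WT replicate 1 (-0.25, adjusted p = 0.028) and with the offsets (-0.55, adjusted p = 1.0e-05). With upper-quartile factors it was called lower as well (-0.21, adjusted p = 0.0421). C4orf50, on the other side, had 113, 113 and 143 in WT and 10.5, 15.2 and 16.9 in GFI1-KO, a fall in every library (-3.10, SE 0.22, adjusted p = 2.1e-12).

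The other changed members did not share one kind of neighborhood. All 6 tested genes within 1 Mb of DPYSL3 had log2FC values below 0, from -1.65 to -0.36, and 5 of them were called lower, whereas DPYSL3 itself rose. With the GC content and length offsets the median around DPYSL3 was -0.36 in place of -0.69. Around STMN2, 10 of 14 fell and 2 rose (median -0.88, or -0.46 with the offsets), against -2.37 for STMN2 (-2.11 with the offsets). Around STMN3, 31 of 50 rose and 4 fell (median 0.62), and with the offsets the median there was 0.12 and STMN3 itself was at 0.32. The remaining medians lay between -0.25 (DPYSL4) and 0.37 (STMN1). In the main fit STMN1 fell among neighbors of which 20 of 35 were higher and 4 lower. With the offsets STMN1 itself was at -0.03 and was not called.

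**Figure D5:**
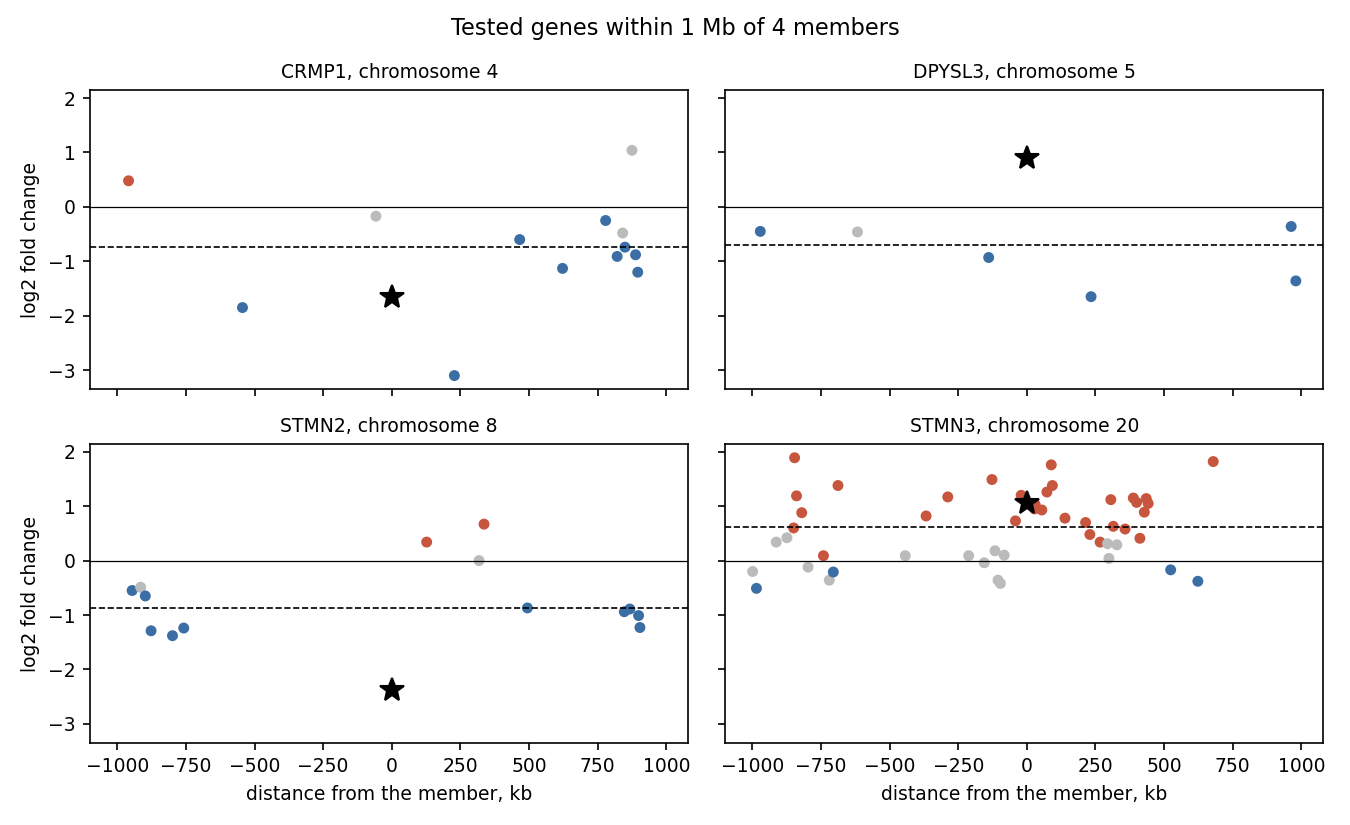
Log2FC (GFI1-KO minus WT) of every tested gene within 1 Mb of CRMP1, DPYSL3, STMN2 and STMN3 by its distance from the member in kilobases (kb), red for higher, blue for lower and grey for not called, with the member as a star and the median of the others as a dashed line. The stars of CRMP1 and STMN2 lie below medians that are themselves below 0 (-0.74 and -0.88), DPYSL3 lies above 6 genes that are all below 0, and STMN3 lies among neighbors with a median of 0.62.

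Across the 6 libraries, the protein-coding genes whose log2 CPM moved most like that of STMN3, the called member with the largest increase, were WDR81, GAMT and POLDIP3 (Euclidean distances of centered log2 CPM of 0.0377, 0.045 and 0.0522, among 11213 candidates). Their log2FC values were 1.05, 1.05 and 1.03, and with the offsets 0.42, 0.45 and 0.70. The genes most like STMN2, the called member with the largest decrease, were ADAMTS14, ST18 and FAM19A2 (distances 0.362, 0.394 and 0.401), with log2FC values of -2.43, -2.17 and -2.26, and with the offsets -3.04, -1.72 and -1.97. With 3 libraries a group, such likeness describes little more than a similar difference between the groups.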

How the data were processed

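H1155 RNA-Seq counts of 3 libraries labelled WT and 3 labelled GFI1-KO were analysed. The authors deposited read counts per gene, not normalized, with gene length and position. The labels name Bowtie2 and HTSeq, while the methods of the study name Hisat2 and featureCounts after poly-T selection. Both give hg38. The annotation release, strand setting and rule for reads with several matches are not given in the sources used here. No deposited column of per-sample values was left unused.

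Genes were tested in edgeR 4.0.16 (R 4.3.3) with TMM factors, filterByExpr and the quasi-likelihood F test, and p was adjusted by Benjamini and Hochberg's method over all 17514 genes tested, at an adjusted p of at most 0.05. Each standard error (SE) is |log2FC| over the root of F. FPKM was computed from count, deposited gene length and library total. Levels of different genes were compared per length. GC content and length offsets were fitted library by library as natural splines (5 degrees of freedom). Permutation tests were exact and two-sided. Libraries totalled 14882914 to 17692882 counts, where 3 counts correspond to between 0.17 and 0.202 CPM. Intervals cover counting error only, since reads copied by PCR are not independent.

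The members, lists, tests and alternatives were chosen with earlier results of these data known. Named besides the members were GFI1, the genes of each list with the largest called increase and decrease, ELAVL4, REST, TARDBP, MAPK8, CDK5, GSK3B, BASP1, TUBB3 and MKI67, the nearest tested protein-coding neighbor of CRMP1 on each side, and the 3 protein-coding genes (mean of at least 100 normalized counts) most like STMN3 and STMN2. Alternatives were DESeq2 1.42.0, limma-voom (limma 3.58.1), other scaling factors, other filters, a replicate block, each library left out, stricter thresholds and the offsets. The offsets for family sums and for neighboring genes were added after seeing the data. CHGA, NEUROD1, UCHL1, ENO2, INSM1, PLXNA1 and PLXNA3 were named after their values were seen. Of the marker lists not given in the report, 1 of 4 epithelial genes was higher and 2 were lower in the main fit. In that fit, 2 of 5 tested fibroblast genes were higher and 3 lower, and 1 of 2 tested endothelial genes was lower.

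In data simulated for GFI1-KO against WT over 17200 genes, edgeR recovered 91.5% of 200 genes changed by a log2 fold change of 1, and 6.63% of its calls were unchanged genes. Unlike the real libraries, the simulated ones had few changed genes and no GC trend, so these shares do not carry over to the real data. Promoters were taken from RefSeq (GRCh38.p14) and matched by symbol. Genes were placed with GENCODE 44, in which 58207 of 58735 identifiers (99.1%) were found. Tables were read with Python 3.11.15, pandas 2.3.3 and numpy 2.4.6, exact tests used scipy 1.17.1, and figures were drawn with matplotlib 3.10.9.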

Additional observations from a re-analysis of the deposited data

How the results depend on the processing

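Of the 9 members tested, 2 to 3 were called higher and 4 lower under each scaling, filter, tool, block, offset and left-out library. With the offsets the 4 lower members were not the same genes: STMN1 was no longer called, and DPYSL4 was called lower with its sign reversed. At a log2FC of 1 or more in size the numbers were 1 higher and 2 lower, and by list 2 and 1 for semaphorin 3A and CRMP partners, 0 and 0 for stathmin regulators, 0 and 2 for GAP43-like proteins, 1 and 6 for tubulins and microtubule-associated proteins, and 0 and 0 for proliferation. With the GC content and length offsets, with and without the replicate block, stathmin regulators had 1 gene lower in place of 9 (with the offsets alone, 7 higher in place of 5) and tubulins and microtubule-associated proteins 3 higher in place of 5. The offsets also moved the summed CRMP ratio from 0.922 to 0.772 and the stathmin ratio from 1.01 to 1.06. The cause was not tested.

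DPYSL4 reversed to -0.59 with the offsets (adjusted p = 7.1e-10, edgeR) and to -0.59 with the offsets and the replicate block (adjusted p = 1.7e-11). GAP43 reversed to -0.01 with upper-quartile factors and to -0.01 without GFI1-KO replicate 2 (between -0.01 and 0.08 with each library left out), and was called in none of these. The offsets ended the call of STMN1 and, like most alternatives, that of DPYSL2.

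No shared effect of the replicate number was seen: deviations from the group means correlated at -6.28e-03, 0.0132 and 0.0215 for same-numbered libraries. For the others they correlated between -0.0501 and 0.044. This does not show whether same-numbered libraries were prepared together. With the block, 12573 genes were called in place of 12680, and among the members the call of DPYSL2 was lost (adjusted p = 0.0631, edgeR). DESeq2 called 11744 genes and the offsets left 10603. Depth limits STMN4, and in part STMN2.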
